A study of Mus musculus with 16 samples.

Results

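The receptor chains for interleukin 2 (IL-2) and the related cytokines that share the common gamma chain were followed through 16 arrays of mouse CD4 T cells. The members were Il2ra, Il2rb, Il2rg, Il7r, Il4ra, Il21r and Il15ra, and every probe set that the array annotation pairs with 1 of these symbols was taken, whatever its value. Of the 7 genes, 5 had such probe sets, among 17097 genes with any. They held 9 probe sets of the 45141 on the array. Il2ra had 2, Il2rb 3, Il15ra 2, and Il4ra and Il21r 1 each. Il7r, the IL-7 receptor alpha chain, and Il2rg, the common gamma chain itself, were not analysed here.

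Regulatory T cells (Tregs), which need the transcription factor Foxp3 and restrain other immune cells, were compared with conventional CD4 T cells (Tconv) from the spleens of untreated NOD/LtJ mice aged 6 weeks. NOD is a strain that develops autoimmune diabetes. KI Tregs and KI Tconv came from mice with the knock-in allele Foxp3tm2Ayr, called Foxp3gfp in the labels, in which green fluorescent protein (GFP) is fused to Foxp3 at its own locus. WT Tregs and WT Tconv came from mice with the transgene Tg(Foxp3-EGFP/cre)1aJbs, in which Foxp3 regulatory sequence drives an EGFP and Cre fusion beside an unaltered Foxp3 gene. Both genotypes thus carry a GFP reporter under Foxp3 control, and neither is a reporter-free NOD mouse. Each of the 4 groups had 4 arrays, and the samples are numbered 1 to 4 within a group. Separate mice are not stated for them, so the p-values measure only the spread between these samples, and precision is limited by how few arrays there are.

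The receptors work by a shared scheme. Il2ra (CD25) binds IL-2 and raises the affinity of the complex but does not signal, Il2rb signals for both IL-2 and IL-15, and Il15ra binds IL-15 and presents it. Il4ra and Il21r bind IL-4 and IL-21, and each complex signals inside the cell with the common gamma chain through JAK kinases and STAT transcription factors. Tregs make little IL-2 and depend on IL-2 from other cells, and a high level of CD25 is among their defining surface features. Because STAT5 and Foxp3 are both known to act at Il2ra, an altered Foxp3 protein raises the question of how the receptor transcripts stand in KI cells.

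The measured members other than Il2rb lie in a pair of neighbourhoods of the mouse genome. Il2ra and Il15ra are neighbours on chromosome 2 with 0 protein-coding genes between them in the RefSeq annotation (GRCm38.p6), and Il4ra and Il21r are neighbours on chromosome 7 with 0 genes between them. The RefSeq promoter windows, 250 bases before to 50 bases after a start, held 5 entries for 4 of the 5 measured members, and Il2rb is named only. The promoters shown are 3: those of Il2ra and its neighbour Il15ra, whose transcripts were both higher in Tregs in each genotype, and that of Il21r, the single measured member with a motif match, set in capitals.
Il2ra, chr2:11642542-11642841, plus strand: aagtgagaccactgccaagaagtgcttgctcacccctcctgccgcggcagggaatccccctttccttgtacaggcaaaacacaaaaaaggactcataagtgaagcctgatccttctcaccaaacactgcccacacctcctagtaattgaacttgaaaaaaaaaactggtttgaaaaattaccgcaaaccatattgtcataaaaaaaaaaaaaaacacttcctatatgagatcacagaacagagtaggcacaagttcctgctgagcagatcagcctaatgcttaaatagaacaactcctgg
Il15ra (the upstream of 2 starts), chr2:11705043-11705342, plus strand: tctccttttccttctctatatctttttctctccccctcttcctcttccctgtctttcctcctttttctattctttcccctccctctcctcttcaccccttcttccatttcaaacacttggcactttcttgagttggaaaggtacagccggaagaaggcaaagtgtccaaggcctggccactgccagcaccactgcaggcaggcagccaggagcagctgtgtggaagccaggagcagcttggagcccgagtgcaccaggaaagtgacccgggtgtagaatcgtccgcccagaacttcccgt
Il21r, chr7:125603179-125603478, plus strand: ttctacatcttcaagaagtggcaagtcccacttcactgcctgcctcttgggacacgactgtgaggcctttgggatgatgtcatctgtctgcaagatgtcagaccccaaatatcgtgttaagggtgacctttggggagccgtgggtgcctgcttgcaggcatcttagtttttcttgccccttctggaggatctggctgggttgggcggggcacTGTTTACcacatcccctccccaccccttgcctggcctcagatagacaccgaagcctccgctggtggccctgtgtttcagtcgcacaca
The motifs searched on both strands were the STAT motif TTCNNNGAA, the forkhead motif TGTTTAC and the ETS motif CCGGAAGT, which 8.30%, 3.65% and 3.89% of all 32851 mouse promoter windows of 300 bases hold. Among the 5 windows of measured members, the 1 match was the forkhead motif in Il21r, beginning at position -38 relative to the start. A match describes letters in a window and is no evidence of a bound site.

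Values are log2 expression levels after robust multi-array averaging (RMA), so a difference of 1 is a doubling. On the 23 control probe sets that match no transcript by design, the median level was 2.60 and the highest 4.71, and levels below about 5 therefore lie near background. Of the 9 member probe sets, 8 exceeded a log2 level of 5 on at least 4 arrays and were tested. A probe set with high levels in a single group could pass this filter, so the counts of tested members below describe only those 8. The Il2ra probe sets and 1417546_PM_at of Il2rb exceeded 5 on Treg arrays alone, so they passed only through the cells where they are high. The labels give each array a number. Those numbered 4 to 9 are WT, those numbered 13 to 23 are KI, and 24 to 27 hold 1 array of each group (replicate 4). What these numbers record is not stated, and values within arrays 24 to 27 are given for several results below.

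The sorted cells carried the markers of their labels with exceptions. The labels give the same gate, CD3 and CD4 positive without GFP, for all 16 samples, which leaves the gate of the Tregs unclear. Foxp3 nonetheless averaged 9.76 ± 0.29 in KI Tregs, 9.86 ± 0.20 in WT Tregs, 3.69 ± 0.09 in KI Tconv and 4.63 ± 0.32 in WT Tconv (SD, n = 4 each), and it was lower in KI than in WT Tconv (difference -0.93, adjusted p = 0.0104), where both means lie below the highest control probe set. Of 6 Treg markers, 4 had a probe set, and all 4 passed as higher in Tregs in each genotype. Between genotypes, Ikzf2, the transcription factor Helios, was lower in KI than in WT Tconv (-0.83, adjusted p = 5.8e-06) and Ctla4 was higher in KI than in WT Tregs (0.64, adjusted p = 0.0358). T cell marker scores, the mean level over 5 of 6 genes, ran from 9.80 to 10.1 in KI arrays of both cell types and from 9.83 to 10.0 in WT arrays. In these bulk samples, fewer cells of a type and less RNA per cell cannot be told apart.

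Il2ra showed the widest separation of the members. Its first probe set (1420692_PM_at) read 9.90, 9.64, 9.87 and 9.67 in KI Tregs and 3.75, 3.76, 3.39 and 3.91 in KI Tconv. In WT it read 9.24, 9.43, 9.39 and 9.13 in Tregs and 4.13, 3.85, 3.49 and 3.75 in Tconv. Every Treg array lay far above every Tconv array, and 0 of 8 Tconv arrays exceeded the highest control probe set. The difference between Tregs and Tconv was 6.06 (SE 0.132, 66.9-fold, adjusted p = 2.71e-16) in KI and 5.50 (SE 0.132, 45.1-fold, adjusted p = 2.25e-15) in WT. Since the Tconv levels are near background, these folds depend on the background and may understate the true ones. The second Il2ra probe set (1420691_PM_at) read 7.30, 7.29, 7.61 and 7.26 in KI Tregs, against 3.87, 3.85, 3.41 and 3.87 in KI Tconv. It read 7.08, 7.39, 7.12 and 6.49 in WT Tregs, against 3.55, 3.55, 3.61 and 3.56 in WT Tconv. Its differences were smaller, at 3.61 (12.2-fold, adjusted p = 1.44e-11 over all probe sets) in KI and 3.45 (11.0-fold, adjusted p = 4.16e-11) in WT, so the probe sets of this gene agreed in direction and not in size.

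Il2rb, the signalling chain shared by IL-2 and IL-15, was also higher in Tregs, and on its brightest probe set it was measured above background in Tconv. Its brightest probe set (1443937_PM_at) read 11.36, 11.42, 11.42 and 11.50 in KI Tregs and 8.29, 7.70, 7.78 and 8.36 in KI Tconv. In WT it read 11.14, 11.37, 11.18 and 11.27 in Tregs and 8.26, 8.53, 8.18 and 8.49 in Tconv. No Treg array overlapped a Tconv array. The differences were 3.39 (SE 0.124, 10.5-fold, adjusted p = 2.04e-13) in KI and 2.88 (SE 0.124, 7.34-fold, adjusted p = 3.57e-12) in WT. The other 2 probe sets of Il2rb went the same way, by 4.06 (16.7-fold) and 2.67 (6.36-fold) in KI and by 3.72 (13.2-fold) and 2.44 (5.42-fold) in WT. All 4 of these differences passed over all probe sets, with adjusted p between 1.42e-10 and 4.65e-09. Their folds depend on the background, since 5 of 8 Tconv arrays on 1448759_PM_at and 0 of 8 on 1417546_PM_at exceeded the highest control probe set.

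KI Tconv were uneven in Il2rb. Samples 2 and 3 lay at 7.70 and 7.78 and samples 1 and 4 at 8.29 and 8.36, and the same samples were the low ones on 1448759_PM_at, at 4.67 and 4.69 against 5.52 and 5.73. The dimmest probe set (1417546_PM_at) did not follow this order, with 3.49, 3.37, 3.25 and 2.98, all near background. The mean level of the 6 activated or memory T cell markers was also lower in KI Tconv samples 2 and 3, at 6.94 and 7.06, than in samples 1 and 4, at 7.66 and 7.58. Scores of some other cell types split the same way. In samples 2 and 3, against samples 1 and 4, the B cell score (5 genes) was 4.59 and 4.92 against 6.11 and 5.97, and the neutrophil score (5 genes) was 3.98 and 4.34 against 7.09 and 6.27. The monocyte score (6 genes) was 3.76 and 3.82 against 4.45 and 4.58, the plasma cell score (3 genes) 3.86 and 4.50 against 4.91 and 4.81, and the NK cell score (4 genes), near background, 3.61 and 3.64 against 3.75 and 3.71. In samples 1 to 4 the erythroid score was 7.40, 6.87, 6.72 and 5.69 and did not split this way. Neither did the CD8 T cell score (5.61, 5.22, 5.41 and 5.18) nor the dendritic cell score (3.28, 3.21, 3.34 and 3.43). The part of these cells and states in the uneven Il2rb levels was not tested.

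**Figure D1:**
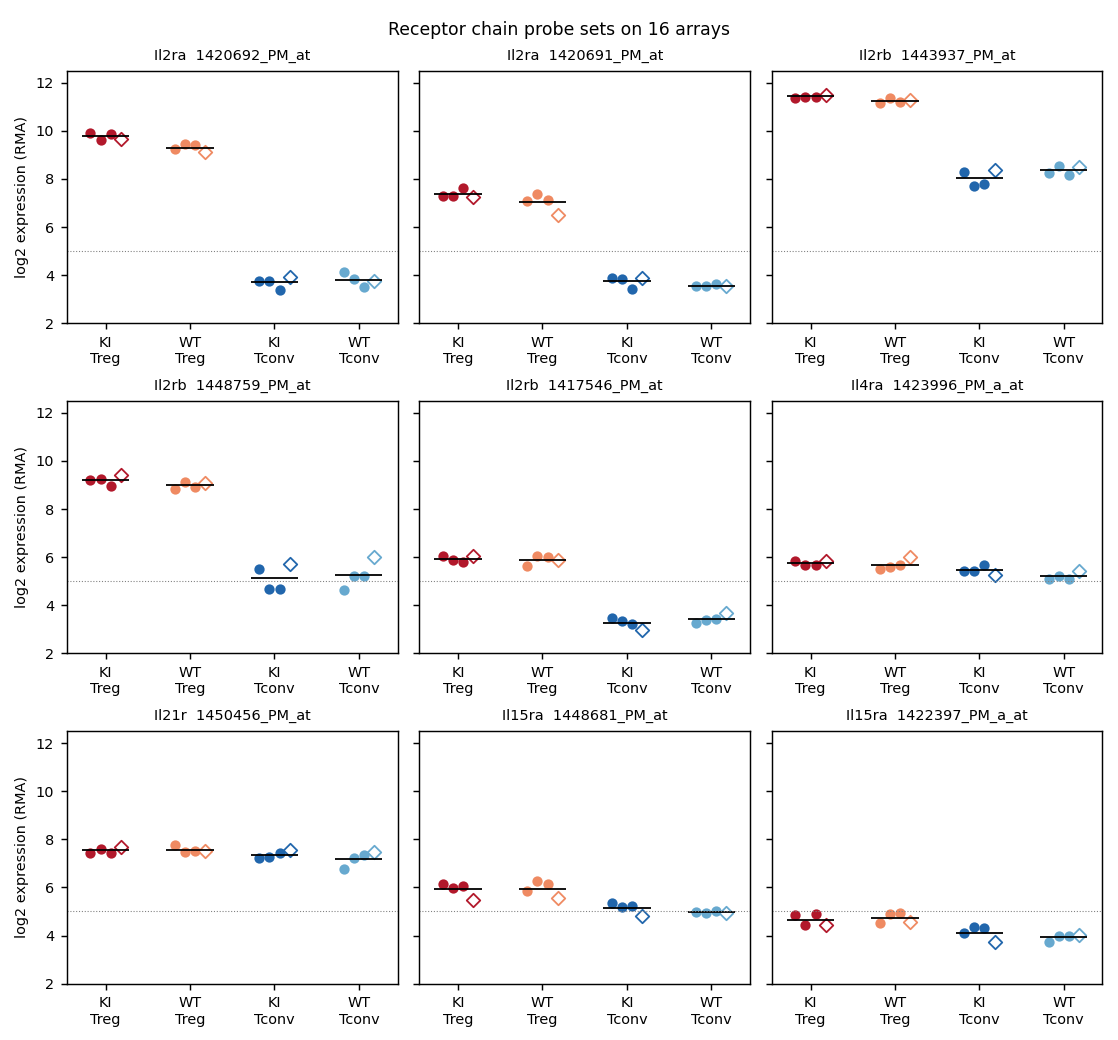
Log2 RMA expression (vertical axis) of the 9 receptor chain probe sets in KI Tregs, WT Tregs, KI Tconv and WT Tconv. Points are single arrays, open diamonds the arrays numbered 24 to 27, bars the means of 4 arrays, and the dotted line a level of 5. Both Il2ra and all 3 Il2rb probe sets separate Tregs from Tconv, with Tconv below 5 for Il2ra, while Il4ra, Il21r and Il15ra lie closer together.

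Il15ra, the private IL-15 receptor chain, was modestly higher in Tregs. Its tested probe set (1448681_PM_at) read 6.15, 6.00, 6.07 and 5.49 in KI Tregs and 5.33, 5.20, 5.23 and 4.82 in KI Tconv. The WT levels were 5.85, 6.26, 6.15 and 5.56 in Tregs and 5.00, 4.94, 5.02 and 4.95 in Tconv. Tregs and Tconv did not overlap, although replicate 4 was the lowest Treg sample in both genotypes. The differences were 0.78 (SE 0.167, 1.71-fold, adjusted p = 0.00109) in KI and 0.98 (SE 0.167, 1.97-fold, adjusted p = 0.000147) in WT, and within arrays 24 to 27 they were 0.66 and 0.61. The Tconv levels lay around 5, close to background, so these folds may depend on the background. The second Il15ra probe set (1422397_PM_a_at) stayed near background, at 4.43 to 4.90 in KI Tregs, 3.72 to 4.34 in KI Tconv, 4.52 to 4.92 in WT Tregs and 3.72 to 4.02 in WT Tconv. It was not tested, and its Treg arrays likewise lay above its Tconv arrays.

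Il4ra, which serves IL-4 and, with another partner chain, IL-13, differed little. It read 5.86, 5.69, 5.68 and 5.84 in KI Tregs and 5.45, 5.43, 5.68 and 5.25 in KI Tconv, so the lowest Treg array and the highest Tconv array were equal to the second decimal. In WT it read 5.52, 5.58, 5.66 and 6.01 in Tregs and 5.09, 5.23, 5.10 and 5.43 in Tconv, without overlap. The difference passed in WT, at 0.48 (SE 0.129, 1.40-fold, adjusted p = 0.00693). In KI it was 0.32 (SE 0.129, adjusted p = 0.0588) and did not pass, although it did under 6 of 24 alternative analyses, with adjusted p from 0.0274 to 0.159 over the 24. Within arrays 24 to 27 the differences were 0.59 in KI and 0.58 in WT.

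Il21r, the IL-21 receptor, had the smallest Treg to Tconv differences of the tested members in each genotype. It read 7.44, 7.60, 7.43 and 7.68 in KI Tregs and 7.20, 7.27, 7.44 and 7.56 in KI Tconv, and these overlapped. It read 7.75, 7.49, 7.52 and 7.53 in WT Tregs and 6.76, 7.20, 7.35 and 7.46 in WT Tconv, without overlap. The difference was 0.17 (SE 0.127, adjusted p = 0.309) in KI and 0.38 (SE 0.127, 1.30-fold, adjusted p = 0.0255) in WT. The WT call rested on single arrays. Without WT Treg 1 the difference was 0.32 (adjusted p = 0.0842), without WT Tconv 1 it was 0.24 (adjusted p = 0.0953), and within arrays 24 to 27 it was 0.08.

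At the level of genes, 3 of 5 tested members were higher in Tregs when KI cells were compared and 5 of 5 when WT cells were, with 0 lower in either. Over all 8139 tested genes, 21.2% were higher and 19.9% lower in KI Tregs, and 16.7% were higher and 17.9% lower in WT Tregs. At the level of probe sets, 6 of 8 were higher in KI and 8 of 8 in WT, where 16.9% and 13.7% of 18621 tested probe sets were higher. Every Treg array lay above every Tconv array for 8 of 9 member probe sets in KI and 9 of 9 in WT, compared with 8.33% and 8.63% of all 45037 probe sets. The median difference over the 5 member genes was 0.78 in KI and 0.98 in WT, beside medians of -0.02 and -0.03 over all tested genes. That Il4ra and Il21r passed in WT alone does not show that the genotypes differ, since the interaction, which is the genotype difference of Tregs minus that of Tconv, was -0.17 (adjusted p = 0.927) for Il4ra and -0.21 (adjusted p = 0.893) for Il21r.

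**Figure D2:**
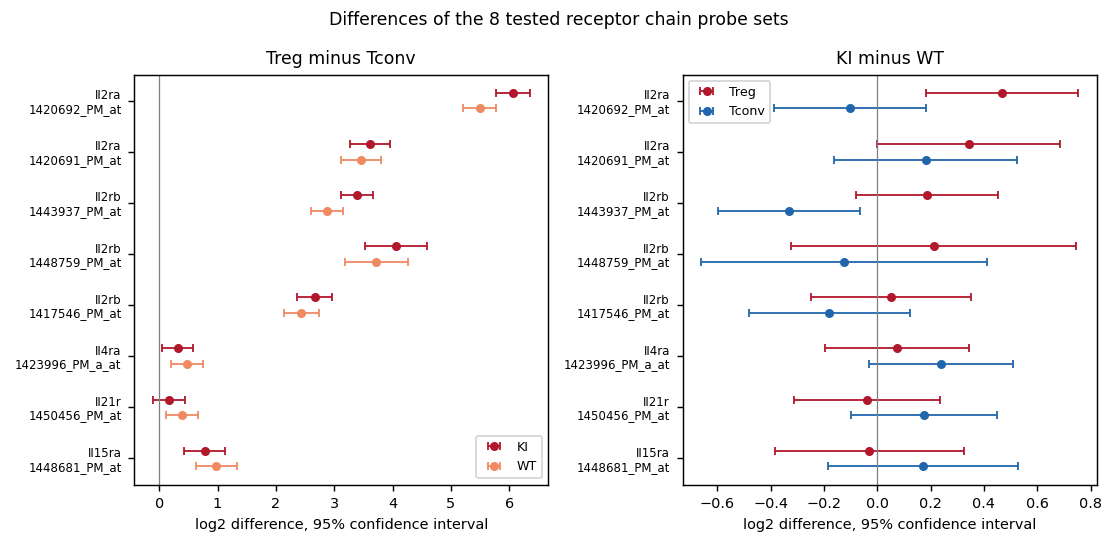
Log2 differences with 95% confidence intervals for the 8 tested receptor chain probe sets, Tregs minus Tconv on the left (KI above WT in each pair) and KI minus WT on the right (Tregs above Tconv). Il2ra and Il2rb lie at 2.44 or more on the left, and on the right no difference exceeds 0.47 in size.

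Between genotypes, 0 of 5 members passed in Tregs with limma, and 1 had an unadjusted p under 0.05, Il2ra. On 1420692_PM_at the 4 KI Treg arrays (9.64 to 9.90) all lay above the 4 WT Treg arrays (9.13 to 9.43), and the means were 9.77 ± 0.13 in KI and 9.30 ± 0.14 in WT (SD, n = 4 each). The difference was 0.47 (SE 0.132, 95% confidence interval 0.19 to 0.75, 1.38-fold), and its adjusted p was 0.0667 (unadjusted p = 0.00238). On 1420691_PM_at the groups overlapped, at 7.26 to 7.61 in KI Tregs and 6.49 to 7.39 in WT Tregs, and the difference was 0.34 (SE 0.162, adjusted p = 0.317). Such complete separation was seen for 1 of 9 member probe sets, compared with 2.55% of all probe sets. Among tested genes 1.99% were higher and 0.848% lower in KI Tregs, and 1.51% of tested probe sets passed in either direction.

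The Il2ra difference kept its direction and moved across the threshold. It was positive in 25 of 25 tested alternatives, at 0.41 to 0.64, and passed in 5 of them. Fitting only the Treg arrays gave an adjusted p of 0.0191, and leaving out KI Treg 4, KI Tconv 3, WT Tconv 1 or WT Tconv 3 gave 0.0475, 0.0469, 0.0412 and 0.0487. With the array numbers as a block of 3 the difference was 0.64 (adjusted p = 0.310), and within arrays 24 to 27 it was 0.54. These values are not separate checks, since the average genotype difference in the block of 3 rests on arrays 24 to 27, Tconv included. The activated or memory T cell marker score was also higher in KI Tregs, at 9.25 to 9.56, than in WT Tregs, at 8.77 to 8.97. With limma 0 of its 6 genes passed between KI and WT Tregs and 5 had an unadjusted p under 0.05. Between KI and WT Tconv 1 of the 6, S100a4, passed as lower in KI (-1.28, adjusted p = 0.0220), beside 0.135% of tested genes. S100a4 also passed the interaction (1.81, adjusted p = 0.00811), where 0.663% of tested genes had a positive one. Across KI Treg samples 1 to 4 the score was 9.48, 9.56, 9.25 and 9.35 and did not follow the order of Il2ra. Across WT Treg samples 1 to 4 it was 8.83, 8.97, 8.94 and 8.77. There it did follow the order of Il2ra, which read 9.24, 9.43, 9.39 and 9.13. The part of this score in the result was not tested.

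**Figure D3:**
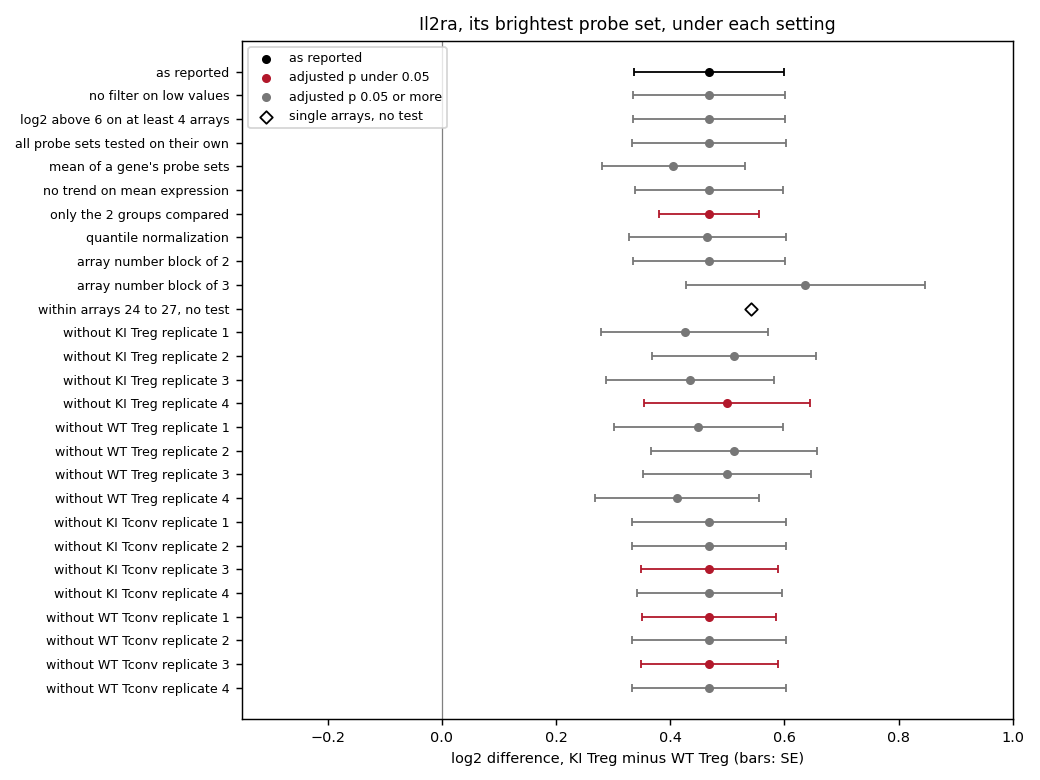
Log2 difference of Il2ra (1420692_PM_at), KI Tregs minus WT Tregs, as reported and under each alternative analysis, 1 of which uses the mean of both Il2ra probe sets, with SE bars. Red points have an adjusted p under 0.05, and the open diamond is the untested difference within arrays 24 to 27. All points lie between 0.41 and 0.64, and 5 alternatives pass.

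The other members moved less between KI and WT Tregs. Il2rb differed by 0.19 (95% confidence interval -0.07 to 0.45, adjusted p = 0.465) and Il4ra by 0.07 (-0.20 to 0.34, adjusted p = 0.811). Il21r differed by -0.04 (-0.30 to 0.23, adjusted p = 0.907) and Il15ra by -0.03 (-0.38 to 0.32, adjusted p = 0.949). The intervals reach 0.45 upward and -0.38 downward, so these data do not show that the levels are alike. Within arrays 24 to 27 the differences were 0.23 for Il2rb, -0.17 for Il4ra, 0.15 for Il21r and -0.07 for Il15ra. The median over the 5 genes was 0.07, beside 0.04 over all tested genes.

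In Tconv the genotype difference passed for 0 of 5 members with limma, and over all tested genes 0% were higher and 0.135% lower in KI. At an unadjusted p under 0.05 the count of members was 1, Il2rb (difference -0.33, 95% confidence interval -0.59 to -0.07, unadjusted p = 0.0160, adjusted p = 0.733). The lower pair of KI Tconv samples described above, 2 and 3, lay below all 4 WT Tconv samples, whereas samples 1 and 4 lay within their range. The remaining differences were 0.24 for Il4ra, 0.18 for Il21r, 0.17 for Il15ra and -0.10 for Il2ra, with adjusted p from 0.828 to 0.921. Within arrays 24 to 27 they were -0.18, 0.11, -0.13 and 0.16, and that of Il2rb was -0.14. For Il2ra 0 of 4 arrays in either Tconv group exceeded the highest control probe set, and its second probe set gave 0.18, so no direction can be read. The interaction was 0.57 for Il2ra (adjusted p = 0.278), 0.52 for Il2rb (adjusted p = 0.314) and -0.20 for Il15ra (adjusted p = 0.933), and 0 of 5 members passed it with limma, beside 0.663% of tested genes with a positive and 0.123% with a negative interaction. At an unadjusted p under 0.05, 2 members had an interaction, Il2ra and Il2rb. The share of all tested genes at that threshold was not counted, here or for the other unadjusted counts, so these are descriptions. The interaction values above are those of the brightest probe sets. The second Il2ra probe set gave 0.16 (adjusted p = 0.951) and the other Il2rb probe sets gave 0.34 (adjusted p = 0.931) and 0.23 (adjusted p = 0.919), and the Tconv part of the Il2ra values lies near background.

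By group, Il2ra was ordered KI Tregs, WT Tregs and then both Tconv groups, and the Treg groups did not differ past the threshold. The Tconv groups have no order, since all their arrays lay within the range of the control probe sets and the probe sets disagree. Il2rb on its brightest probe set was ordered KI Tregs, WT Tregs, WT Tconv, KI Tconv, and the neighbours within a cell type did not differ past the threshold. Il4ra was ordered KI Tregs, WT Tregs, KI Tconv, WT Tconv, where the pairs within a cell type did not pass and WT Tregs were not compared with KI Tconv. Il21r and Il15ra were ordered WT Tregs, KI Tregs, KI Tconv, WT Tconv. For Il15ra, KI Tregs and KI Tconv differed and the other neighbours did not, and for Il21r no neighbouring pair passed.

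Patterns over the 16 arrays were compared by the root mean square (RMS) difference of the log2 levels after each gene's own mean was removed, which is a description without a test and is set mainly by the shared split between cell types. The genes nearest to Il2ra were Foxp3 (RMS 0.45), Plagl1, a zinc finger transcription factor (0.57), and Ctla4, an inhibitory receptor of Tregs (0.73). Nearest to Il2rb were Niban1 (0.19), Gbp3, an interferon-inducible GTPase (0.20), and Nt5e, the ectoenzyme CD73 (0.20). Il15ra lay nearest to Lzts2 (0.14), Slc16a6 (0.15) and Rfx5, a regulator of MHC class II genes (0.15). Il4ra lay nearest to Herpud1, a gene of the endoplasmic reticulum stress response (0.11), Lcp1, the actin-bundling plastin of leukocytes (0.15), and Dnajc1 (0.15). Il21r lay nearest to Lmtk2 (0.12), Rcan1, an inhibitor of calcineurin (0.13), and Cyhr1 (0.13).

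Of the 8 ligands listed, 1 was tested. Il21, the helper T cell cytokine that binds Il21r, was lower in Tregs. It averaged 4.04 ± 0.48 in KI Tregs and 5.92 ± 0.23 in KI Tconv, and 3.91 ± 0.09 in WT Tregs and 5.24 ± 0.23 in WT Tconv (SD, n = 4 each). The differences were -1.88 (adjusted p = 4.24e-07) in KI and -1.33 (adjusted p = 3.66e-05) in WT. The Treg arrays of Il21, at most 4.61 in KI and 4.02 in WT, lay below the highest control probe set. It passed the filter only through Tconv, and these differences depend on the background. Il2 was not tested, since its highest levels were 2.92 in KI Tregs, 3.74 in KI Tconv, 2.93 in WT Tregs and 4.06 in WT Tconv, all near background.

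Of 13 other cytokine receptor chains, 9 were tested. In KI 5 were higher and 0 lower in Tregs (median difference 0.47), and in WT 5 were higher and 1 lower (median 0.35). Of all tested genes, 21.2% were higher and 19.9% lower in KI, and 16.7% and 17.9% in WT. Il12rb1, a chain of the IL-12 and IL-23 receptors, differed by 2.24 between Tregs and Tconv in KI and by 1.41 in WT, and Il10ra, the IL-10 receptor ligand-binding chain, by 1.75 and 1.16. The Tconv arrays of Il12rb1, at most 4.58 in KI and 4.49 in WT, lay below the highest control probe set. It passed the filter only through Tregs, and its Treg to Tconv differences depend on the background. Ifngr1, the ligand-binding chain for interferon gamma, differed by 1.25 and 0.76, and Il10rb, the partner of Il10ra, by 0.94 and 0.98. Between KI and WT Tregs, 1 of these 9 passed, Il12rb1, where 1.99% of all tested genes were higher and 0.848% lower. Il12rb1 averaged 6.52 ± 0.21 in KI Tregs and 5.70 ± 0.35 in WT Tregs (SD, n = 4 each), a difference of 0.81 (SE 0.184, adjusted p = 0.0229).

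Of 10 kinases and STATs, 9 were tested. In KI 6 were higher and 0 lower in Tregs (median 0.37), and in WT 4 were higher and 0 lower (median 0.27). The shares over all tested genes were 21.2% higher and 19.9% lower in KI and 16.7% and 17.9% in WT. Stat5a and Stat5b, the transcription factors through which IL-2 acts, differed by 0.88 and 0.40 in KI and by 1.32 and 0.29 in WT. Jak3, the kinase bound to the common gamma chain, differed by 0.71 in KI and 0.82 in WT, and Stat4, which IL-12 activates, by 0.38 and 0.40. Jak2, a kinase of the IL-12 and interferon gamma receptors, passed between genotypes, at 9.80 ± 0.07 in KI Tregs and 10.06 ± 0.07 in WT Tregs (SD, n = 4 each), a difference of -0.26 (SE 0.062, adjusted p = 0.0281).

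Of 11 feedback inhibitors, 10 were tested. In KI 3 were higher and 3 lower in Tregs (median 0.00), and in WT 3 were higher and 1 lower (median 0.06). Over all tested genes the shares were 21.2% higher and 19.9% lower in KI and 16.7% and 17.9% in WT, so these counts are not a result about the list. The higher genes were Socs2, Cish and Socs5, which restrain JAK and STAT signalling. Socs2 differed by 4.02 in KI and 3.94 in WT, Cish, a known STAT5 target, by 1.94 and 1.65, and Socs5 by 0.76 and 0.85. Ptpn6, the phosphatase SHP-1, was lower by 0.42 in KI Tregs (difference -0.42, adjusted p = 0.00627), and its difference in WT was -0.13 (adjusted p = 0.424). Between genotypes 0 of these 10 passed in Tregs with limma and 1 had an unadjusted p under 0.05, where the values for Socs2 and Cish were -0.21 and 0.05.

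Of 16 genes known to respond to IL-2 or IL-7 through STAT5, 15 were tested. In KI 10 were higher and 4 lower in Tregs (median 1.34), and in WT 9 were higher and 2 lower (median 1.01). The shares over all tested genes were 21.2% higher and 19.9% lower in KI and 16.7% and 17.9% in WT. Tnfrsf4 (OX40) and Tnfrsf9 (4-1BB), costimulatory receptors of the TNF receptor family, differed by 3.89 and 3.29 in KI and by 3.41 and 2.71 in WT. Between genotypes, where 1.99% of all tested genes passed as higher in KI Tregs, 3 of the 15 did. These were Gzmb, the cytotoxic protease granzyme B (0.76, adjusted p = 0.0110), Prdm1, the transcription factor Blimp-1 (0.89, adjusted p = 0.000729), and Nfil3, a basic leucine zipper transcription factor (1.09, adjusted p = 0.000153). The same 3 passed the interaction, at 1.29, 1.21 and 1.10, where 0.663% of all tested genes had a positive one. The Tconv means of Gzmb (3.67 in KI, 4.21 in WT) and Nfil3 (4.18 and 4.19) lie below the highest control probe set, near background. Results for several of these genes were known when the list was drawn, so the counts are descriptions.

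Of 13 regulators known for Il2ra or Il7r, 10 were tested, and 3 were higher and 2 lower in Tregs in each genotype (median -0.05 in KI and 0.04 in WT). These counts lie near the shares over all tested genes given above and are not a result about the list. Beside Foxp3, the higher genes were Gfi1, a transcriptional repressor, which differed by 1.83 in KI and 1.67 in WT, and Rel, the NF-kappaB subunit c-Rel, by 0.92 and 1.20. Runx3, a Runt transcription factor, was lower in Tregs by 0.78 in KI and 0.69 in WT (differences -0.78 and -0.69). Between KI and WT Tregs 0 of the 10 passed with limma, and 0 had an unadjusted p under 0.05.

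**Figure D4:**
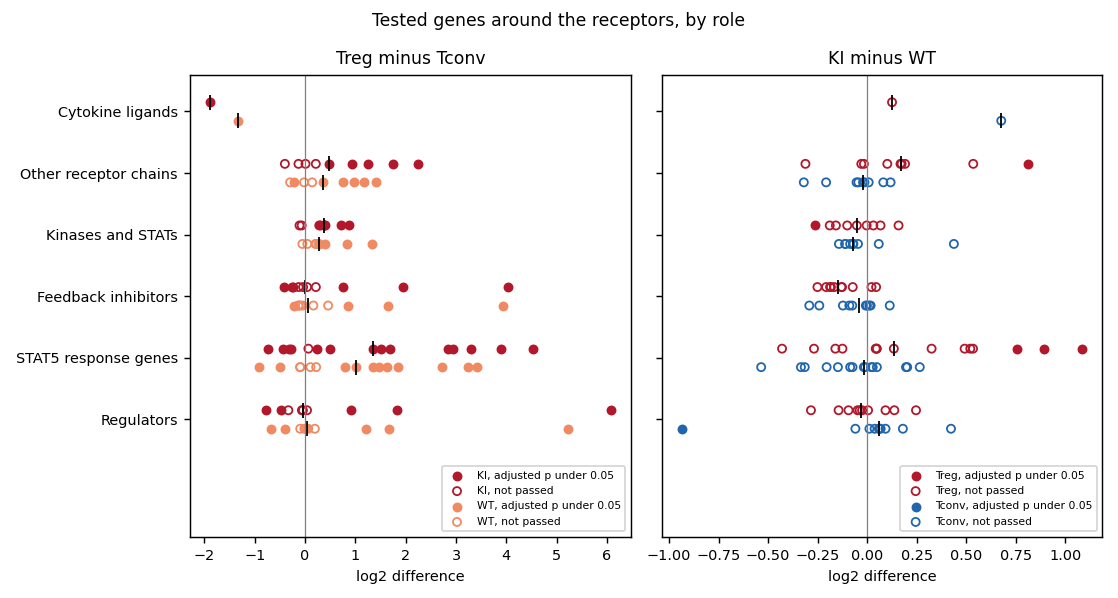
Log2 differences of the tested genes around the receptors, grouped by role, Tregs minus Tconv on the left (KI above WT) and KI minus WT on the right (Tregs above Tconv). Each point is a gene, filled where its adjusted p was under 0.05, and the black ticks are list medians. The genotype calls are Il12rb1, Gzmb, Prdm1 and Nfil3 (higher) and Jak2 (lower) in Tregs, and Foxp3 (lower) in Tconv.

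Markers of other cells that carry these receptors moved in part with the cell types. Cd8a was higher in Tregs than in Tconv by 1.82 in KI and 2.35 in WT, Cd8b1 did not pass, and the score of the 2 genes ran from 5.85 to 6.26 in KI Tregs, 5.18 to 5.61 in KI Tconv, 6.11 to 6.45 in WT Tregs and 4.80 to 5.19 in WT Tconv. NK cells, which express Il2rb strongly, had 4 of 5 markers with a probe set. Of these Eomes was higher in Tregs by 0.83 in KI and 0.92 in WT, while Ncr1, Klrb1c and Klra8 averaged between 2.70 and 3.26 in every group, near background. All 4 dendritic cell markers with a probe set, of 6 listed, stayed near background, with scores of 3.10 to 3.68 over all arrays. B cell scores (5 of 6 markers) ran from 4.94 to 6.48 in KI Tregs, 4.59 to 6.11 in KI Tconv, 4.94 to 6.95 in WT Tregs and 5.04 to 6.99 in WT Tconv, and 1 of the 4 tested genes passed in each genotype. This was Cd79b, higher in Tregs by 1.38 in KI and 1.15 in WT, while Ms4a1, Cd22 and Blnk differed by 0.27, 0.08 and 0.39 in KI and by -0.30, 0.15 and -0.04 in WT. Monocyte scores (6 of 6) ran from 3.74 to 5.62 in KI Tregs, 3.76 to 4.58 in KI Tconv, 3.98 to 5.84 in WT Tregs and 3.87 to 4.71 in WT Tconv, and 1 of the 2 tested genes, Cd68, was higher in Tregs in KI (1.24, adjusted p = 0.0332), with 1.12 (adjusted p = 0.0611) in WT. Neutrophil scores (5 of 5) ran from 5.04 to 8.10 in KI Tregs, 3.98 to 7.09 in KI Tconv, 3.57 to 7.77 in WT Tregs and 4.53 to 7.23 in WT Tconv. Erythroid scores (2 of 4) lay between 5.69 and 9.23 and plasma cell scores (3 of 4) between 2.93 and 5.35 over all arrays. Among CD4 T cell states, the 2 naive markers with a probe set, of 6, were lower in Tregs in both genotypes, with scores of 8.56 to 8.93 in KI Tregs, 11.04 to 11.2 in KI Tconv, 8.86 to 8.90 in WT Tregs and 11.00 to 11.2 in WT Tconv. The activated or memory score ran from 9.25 to 9.56 in KI Tregs, 6.94 to 7.66 in KI Tconv, 8.77 to 8.97 in WT Tregs and 7.55 to 7.87 in WT Tconv, with 6 of 6 genes higher in Tregs in KI and 5 of 6 in WT. Of all tested genes, 21.2% were higher in KI and 16.7% in WT. All Tconv levels of Cd8a and Cd68 lay below the highest control probe set, so the differences of these genes depend on the background. The part of the cells and states above in the receptor differences was not tested.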

How the data were processed

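Expression was measured on 16 Affymetrix arrays with perfect-match probes only. Cells were lysed directly after the sort, RNA was isolated with TRIZOL and labelled by the Affymetrix 3' IVT Express protocol, per the labels' protocols. The deposited values are log2 levels per probe set, which the authors made with RMA in Partek 6.5, per the submitters' processing notes. RMA corrects for background, gives the arrays a common distribution and summarises probes. Values ran from 1.95 to 13.9, array medians from 3.69 to 3.76, and 17581 to 17990 probe sets per array exceeded 5.

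Of 45141 probe sets, 104 were controls, 28898 had 1 gene, 551 had several and 15588 had no listed gene. Current symbols came from Entrez identifiers for 28689, from symbols for 152, and 57 kept the annotation's symbol. Each of 17097 genes was represented by its probe set with the highest mean. The 8139 genes above 5 on at least 4 arrays were fitted with limma 3.58.1 (R 4.3.3), with 1 mean per group over all 16 arrays and a variance trend. Two-sided p-values were adjusted (Benjamini-Hochberg) over all 8139 genes, or over 18621 for single probe sets, with a threshold of 0.05. The script was tested on simulated data.

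The members, the pathway and cell type lists and the tests were chosen with earlier results of these data known. Genes named are all members, the 3 genes nearest to each in pattern, the genes of each pathway list that passed between genotypes or in the interaction, and up to 4 with the largest Treg to Tconv difference. Marker genes are named where they bear on a result. The alternatives changed the filter, the probe set used, the variance model, the groups fitted, the normalization, the array numbers as a block and the arrays used.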

Additional observations from a re-analysis of the deposited data

Results flagged for a closer look

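In 4 of 36 sets of 4 arrays, made of the 9 member probe sets in 4 groups, a single array lay far from the other 3. By chance about 1 in 20 such sets would, which is 1.8 here. KI Treg 3 was high at 7.61 on the dimmer Il2ra probe set (1420691_PM_at), and KI Tconv 3 was low at 3.41 on the same probe set, near background. WT Treg 1 was high at 7.75 for Il21r, and without it the WT difference between Tregs and Tconv lost its call, as given above. WT Tconv 1 was low at 3.72 on the untested Il15ra probe set (1422397_PM_a_at).

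Among the 23 pathway genes named, 4 of 92 sets stood apart in this way. This count lies near the 1 in 20 by chance and is not a result about these genes. KI Treg 4 was high at 10.3 for Ifngr1 and at 9.90 for Jak2, WT Tconv 4 was low at 9.93 for Jak2, and WT Treg 1 was low at 7.78 for Runx3. The interaction of genotype and cell type passed for Gzmb at 1.29 (adjusted p = 0.00507), for Nfil3 at 1.10 (adjusted p = 0.00505) and for Prdm1 at 1.21 (adjusted p = 0.00245). The Tconv part of the Gzmb and Nfil3 values lies near background.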

How the results depend on the processing

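Of the 5 counts of genes that passed, KI against WT Tregs gave 231, KI against WT Tconv 11, Tregs against Tconv 3343 in KI and 2818 in WT, and the interaction 64. With all probe sets tested on their own, the counts were 18 between KI and WT Tconv, 6806 between KI Tregs and KI Tconv and 5373 between WT Tregs and WT Tconv, over more features. Fitting only the groups compared gave 4 between KI and WT Tconv. With the array numbers as a block of 3, the counts were 29 between KI and WT Tregs and 5 between KI and WT Tconv, and the cause was not tested. Leaving out 1 array gave 101 to 571 between KI and WT Tregs, 7 to 65 between KI and WT Tconv, 2890 to 3346 between Tregs and Tconv in KI, 2443 to 2977 in WT and 37 to 104 for the interaction. Between KI and WT Tregs the count was 101, 126 and 571 without KI Treg 1, 2 and 4, and 106, 130 and 139 without WT Treg 1, 3 and 4. Between KI and WT Tconv it was 7 and 65 without KI Tconv 2 and 4, and the interaction gave 37, 104 and 42 without KI Treg 1, KI Tconv 4 and WT Treg 1.

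For the members, 604 values under an alternative kept their direction and side of the threshold, or stayed within 1 SD where untested, and 11 tested values changed sign. All 11 were genotype differences that did not pass. Il2ra in Tconv was 0.040 with the mean of its probe sets and 0.068 with the block of 3, and -0.20 to 0.0079 without 1 array. Il4ra was -0.26 in Tregs and -0.090 in Tconv, and Il21r 0.022 in Tregs, with the block of 3. Without 1 array, Il21r in Tregs ran from -0.086 to 0.021 and Il15ra in Tregs from -0.16 to 0.12. Il4ra could not be tested with a minimum of log2 6. The Treg to Tconv calls of Il2ra, Il2rb and Il15ra held in each genotype under every tested alternative, as did that of Il4ra in WT. Il2ra in Tregs was the 1 member that ever passed between genotypes, in 5 of 124 tested member values, beside 0 of 124 in Tconv and 0 of 119 for the interaction. Within arrays 24 to 27 there is 1 array a group and no test, and sign changes there are not among the 11. The differences that changed sign there were those of Il4ra and Il21r in Tregs and of Il2ra, Il4ra and Il15ra in Tconv, given above. The interactions of Il4ra, Il21r and Il15ra also changed sign there, at 0.0063, 0.044 and 0.056. No paired analysis was made, because the labels do not say which samples of different groups, if any, belong together. Il2ra in Tconv and the dim Il2rb and Il15ra probe sets lie near background, where differences are compressed.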
